A study of Homo sapiens with 21 samples.

Results

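DNA methylation and Polycomb repression are carried by a small set of enzymes, and 10 of their genes were followed here across all groups of a pomalidomide and hairpin experiment in MM.1S, a human multiple myeloma cell line. They were taken by name from the deposited table: UHRF1, DNMT1, DNMT3A, DNMT3B, TET1, TET2, TET3, EZH2, EED and SUZ12. All 10 were among its 17691 gene symbols, and all 10 were among the 12559 genes that reached 1 TPM in at least 3 libraries and entered the tests. The mRNA of 7 groups of MM.1S was sequenced with 3 libraries a group, which the submitters call biological replicates. The groups were untreated cells (0 h), cells kept with pomalidomide at 1 µM until 24 h, 48 h or 72 h, cells carrying a lentiviral short hairpin against ARID2 for 72 h, cells labelled as carrying a hairpin against Aiolos for 72 h, and cells labelled control knockdown. None of the hairpin groups received pomalidomide. For the control knockdown, the sources used here give neither the hairpin nor its time. Pomalidomide turns the ubiquitin ligase subunit cereblon onto the lymphoid factors Ikaros and Aiolos, ARID2 is a subunit of the PBAF chromatin remodeller, and Aiolos is the protein of IKZF3. MM.1S is a single line, and the labels name 1 set of untreated cells for all drug times, so hours in culture and hours in drug cannot be told apart.

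When DNA is copied, the new strand carries no methyl groups. UHRF1 binds the hemimethylated sites that result and brings DNMT1, which copies the methylation pattern onto the new strand, while DNMT3A and DNMT3B place methyl groups at sites that had none. TET1, TET2 and TET3 oxidise methylated cytosine, the first step of removal, and TET2 and DNMT3A are genes often mutated in blood cancers. Polycomb repressive complex 2 (PRC2) methylates histone H3 at silenced genes. EZH2 is its catalytic subunit, EED binds the finished mark and stimulates the enzyme, and SUZ12 holds the complex together. EZH1 is an alternative, less active catalytic subunit that is typical of cells that have stopped dividing, whereas EZH2 and UHRF1 are typical of dividing cells. These roles are background, and the libraries measure transcripts, not methylation, histone marks or protein.

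On GRCh38 (GENCODE 29), UHRF1 lies at chr19:4903080-4962154 (plus strand), DNMT1 at chr19:10133345-10231286 (minus), DNMT3A at chr2:25227855-25342590 (minus) and DNMT3B at chr20:32762385-32809356 (plus). TET1 lies at chr10:68560656-68694482, TET2 at chr4:105145875-105279816 and TET3 at chr2:73986404-74108176, all on the plus strand. EZH2 lies at chr7:148807383-148884321 (minus), EED at chr11:86244544-86278813 (plus) and SUZ12 at chr17:31937018-32001045 (plus). Each value below is for the whole gene, as the table names it by symbol.

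Promoters of 5 of the 10 genes are printed because UHRF1, DNMT1 and EZH2 moved most alike over the libraries, SUZ12 parted from them in 1 hairpin group, and TET2 moved the other way. Each is a 240-base window of RefSeq sequence (GRCh38.p14) around the first start listed for the gene, 210 bases before it and 30 bases after, on the gene's strand. Capitals mark a match to an 8-letter site of the E2F family, which drives genes of DNA replication.

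UHRF1 (chr19:4909291-4909530, plus strand): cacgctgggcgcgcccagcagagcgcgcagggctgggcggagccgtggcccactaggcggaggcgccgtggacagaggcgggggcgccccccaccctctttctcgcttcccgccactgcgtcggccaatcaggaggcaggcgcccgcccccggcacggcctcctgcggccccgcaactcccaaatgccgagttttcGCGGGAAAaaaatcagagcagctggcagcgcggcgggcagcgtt
DNMT1 (chr19:10194924-10195163, minus strand): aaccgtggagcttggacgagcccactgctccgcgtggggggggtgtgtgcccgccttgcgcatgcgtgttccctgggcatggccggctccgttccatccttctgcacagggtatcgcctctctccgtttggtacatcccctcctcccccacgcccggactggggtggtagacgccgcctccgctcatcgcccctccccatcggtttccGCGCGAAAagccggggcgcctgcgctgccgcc
EZH2 (chr7:148884262-148884501, minus strand): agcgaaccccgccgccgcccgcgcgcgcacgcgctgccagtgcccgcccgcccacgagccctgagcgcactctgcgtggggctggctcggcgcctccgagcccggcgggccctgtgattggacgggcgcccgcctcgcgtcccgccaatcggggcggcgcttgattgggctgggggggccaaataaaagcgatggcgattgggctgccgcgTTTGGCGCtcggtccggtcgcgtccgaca
SUZ12 (chr17:31936797-31937036, plus strand): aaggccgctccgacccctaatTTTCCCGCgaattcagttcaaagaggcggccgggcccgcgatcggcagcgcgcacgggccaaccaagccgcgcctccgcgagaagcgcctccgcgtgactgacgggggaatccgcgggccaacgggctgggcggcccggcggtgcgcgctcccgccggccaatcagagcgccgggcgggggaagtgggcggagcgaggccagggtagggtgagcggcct
TET2 (chr4:105145665-105145904, plus strand): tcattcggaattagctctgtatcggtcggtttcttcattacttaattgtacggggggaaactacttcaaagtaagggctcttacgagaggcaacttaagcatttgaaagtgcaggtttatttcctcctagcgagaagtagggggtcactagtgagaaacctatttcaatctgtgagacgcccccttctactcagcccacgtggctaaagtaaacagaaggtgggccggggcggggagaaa

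The E2F letters searched on both strands were TTTCCCGC, TTTCGCGC, TTTGCCGC and TTTGGCGC, in the 300 bases from 250 before to 50 after each start. At first-listed starts they were found in 4 of the 10 genes, against 3.33% of 27305 genes with a RefSeq promoter. Positions relative to the start, counted with no 0, were -14 to -7 in UHRF1, -2 to 6 in DNMT1, 2 to 9 in EZH2 and -189 to -182 in SUZ12. The first-listed promoters of TET2, TET1, TET3, DNMT3A, DNMT3B and EED held none. The DNMT3B window (chr20:32779602-32779901) lies inside the gene as annotated above, which starts at chr20:32762385, and that end was not searched. The windows of UHRF1 and DNMT1 lie inside their annotated genes as well. Of 34 S phase genes with a promoter in the table, 17 held a match. The letters GGGAA, the core bound by Ikaros family proteins, were in 64.6% of genes and so in most promoters. They also lie inside 1 of the E2F sites (TTTCCCGC read on the other strand), including those of UHRF1 and SUZ12. CCAAT was in 35.7% of genes, the E-box CACGTG in 7.43% and the cell cycle homology letters TTTGAA or TTCGAA in 16.6%. At first-listed starts, UHRF1, DNMT3B, EZH2, EED and SUZ12 held CCAAT, and TET2 and TET3 held the E-box. TET2 and SUZ12 held the cell cycle letters there, which in SUZ12 do not overlap the E2F site. Other listed starts could differ. CCAAT was found at other starts of TET1 and TET3 and the E-box at other starts of DNMT3A. Start 2 of EZH2 and start 3 of UHRF1 held no E2F letters. A match describes letters in these windows, and binding was not measured.

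The targeted genes were checked before all else. ARID2 stood at 12.4, 12.2 and 12.1 TPM in the ARID2 knockdown libraries, against 26, 25.4 and 25.4 TPM in control knockdown libraries, and was lower in each of the 3. IKZF3 stood at 127, 121 and 141 TPM in labelled Aiolos knockdown libraries, against 83.5, 79.2 and 81.4 TPM in control knockdown libraries, higher in each of the 3, which goes against the label. A higher IKZF3 transcript was not particular to that group. IKZF3 averaged 119.5 TPM in ARID2 knockdown libraries, against 81.3 TPM in control knockdown libraries. With the drug it averaged 115, 123 and 112 TPM at 24, 48 and 72 h, against 96.4 TPM in untreated cells. Aiolos protein was not measured. The libraries with the Aiolos label are called labelled Aiolos knockdown libraries throughout, and directions drawn from them are those of libraries in which the IKZF3 transcript was higher. Sequencing depth is unknown, because TPM values keep none. Across genes, libraries of the same group correlated at 0.993 to 0.996 (21 pairs) and libraries of different groups at 0.908 to 0.987 (189 pairs). The 9 plasma cell markers summed to 8385 to 9145 TPM over the 3 drug times, against 10807 to 10994 TPM in untreated cells. Their sum was 10202 to 10618 TPM in ARID2 knockdown libraries and 6709 to 7077 TPM in labelled Aiolos knockdown libraries, against 11534 to 11735 TPM in control knockdown libraries. Single markers need not follow the sum, since over all libraries JCHAIN ran from 3214 to 5780 TPM and CD38 from 6.31 to 22.6 TPM. Mitochondrial transcripts took 16.4% to 17.3% of TPM at 24 h, 16.6% to 16.9% at 48 h and 13.3% to 14.2% at 72 h. In untreated cells they took 15.4% to 15.6%. They took 18.2% to 18.6% in ARID2 and 14.8% to 16.5% in labelled Aiolos knockdown libraries, against 16.9% to 17.6% in control knockdown libraries. The 4 T and NK cell markers in the table summed to at most 5.35 TPM, with CD3D at most at 0.359 TPM. The 5 myeloid markers summed to at most 7.51 TPM, with LYZ and S100A8 at a median of 0 TPM. The 5 epithelial, stromal and endothelial markers summed to 1.38 to 22.6 TPM, highest in control knockdown libraries, with the endothelial PECAM1 up to 19.6 TPM. EPCAM, KRT5, COL1A1 and COL1A2 each reached at most 1.69 TPM. The 3 erythroid markers in the table summed to 3.74 to 28.9 TPM, highest in ARID2 knockdown libraries, with HBB up to 28.5 TPM. Transcripts of cytosolic ribosomal proteins took 11.8% to 12.5% of TPM in labelled Aiolos knockdown libraries, above the 6.91% to 9.17% of all other libraries. Whether these differences have a part in any result was not tested.

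**Figure D1:**
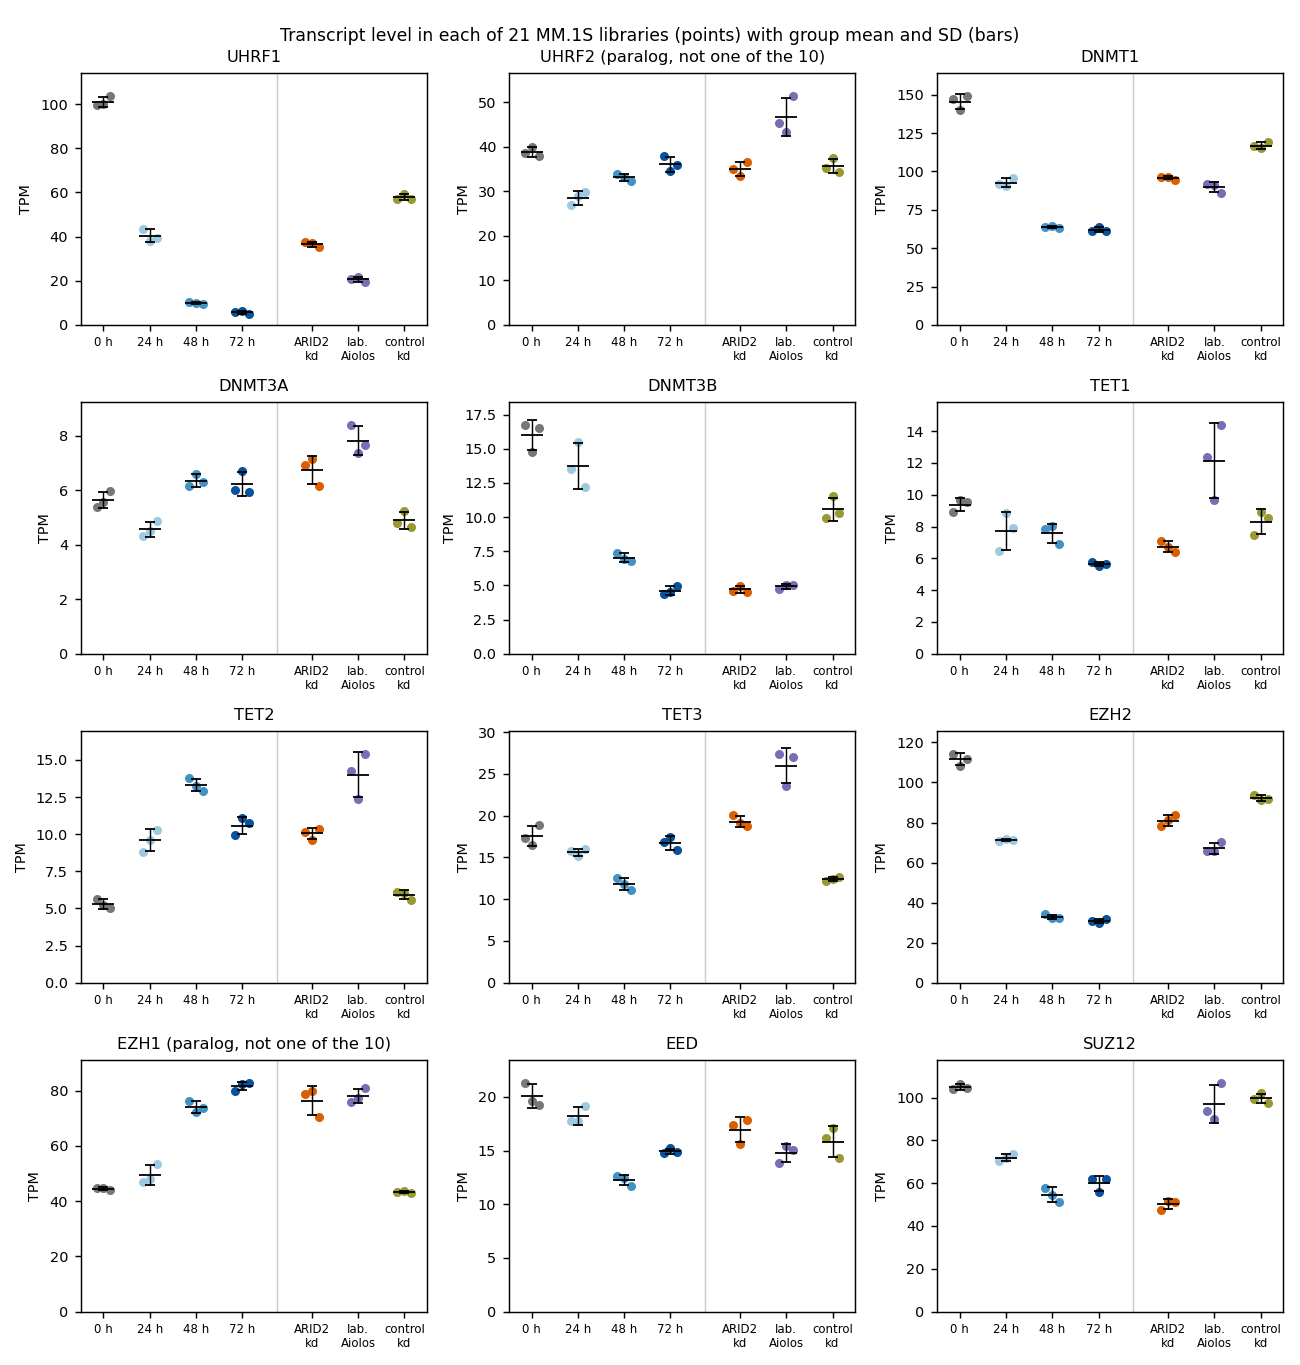
TPM of the 10 genes, and of the paralogs UHRF2 and EZH1, in each library (points, 3 a group) with group mean and SD (bars). Pomalidomide times run from untreated (0 h) to 72 h on the left of the grey line, and ARID2 knockdown (ARID2 kd), labelled Aiolos knockdown libraries (lab. Aiolos) and control knockdown (control kd) stand on its right. UHRF1 falls from group to group along the drug series to a mean of 5.69 TPM at 72 h, and TET2 and EZH1 stand higher at 72 h than at 0 h.

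Of the 10 genes, UHRF1, the reader of hemimethylated DNA, had the largest change at each drug time and in labelled Aiolos knockdown libraries. It had 99.4, 100.3 and 104 TPM in untreated cells, 43.6, 37.98 and 39.3 TPM at 24 h, 10.4, 9.75 and 9.31 TPM at 48 h and 5.97, 6.14 and 4.97 TPM at 72 h of pomalidomide. No pair of these groups overlapped. Groups that do not overlap were common, in 80.4% of all genes tested at 72 h against untreated cells and in 70.6% in each hairpin comparison with control knockdown. In a lysate of many cells, fewer cells of a type (such as dividing cells) and less RNA per cell cannot be told apart. Fold changes are given on the log2(TPM + 1) scale with their standard error, and adjusted p-values come from limma across all 12559 genes, with a gene passing under 0.05. Against untreated cells UHRF1 changed by -1.31 ± 0.06, adjusted p = 6.95e-13 at 24 h, by -3.24 ± 0.06, adjusted p = 1.46e-19 at 48 h and by -3.94 ± 0.06, adjusted p = 3.67e-21 at 72 h. It ranked as number 8 of 12559 genes from the largest fall at both 48 and 72 h. Among the hairpin groups it had 37.3, 36.9 and 35.2 TPM in ARID2 knockdown libraries and 20.9, 21.7 and 19.5 TPM in labelled Aiolos knockdown libraries, against 56.97, 59.3 and 57.2 TPM in control knockdown libraries. Both groups lay wholly below the controls, with changes of -0.65 ± 0.06, adjusted p = 3.02e-08 for ARID2 knockdown and -1.44 ± 0.06, adjusted p = 1.12e-13 for labelled Aiolos knockdown libraries. Ordered by mean, the 7 groups of UHRF1 ran from 72 h through 48 h, labelled Aiolos knockdown, ARID2 knockdown, 24 h and control knockdown to untreated, and no neighbours in that order overlapped.

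DNMT1, the maintenance methyltransferase, moved the same way and less far. It had 147, 140.2 and 149 TPM in untreated cells, 91.99, 90.3 and 96.1 TPM at 24 h, 63.5, 64.4 and 63.3 TPM at 48 h and 61.3, 63.96 and 61 TPM at 72 h. Each drug group lay wholly below untreated cells, while the 48 and 72 h groups overlapped. The change was -0.64 ± 0.03, adjusted p = 2.68e-12 at 24 h and -1.22 ± 0.03, adjusted p = 2.32e-17 at 72 h. With hairpins, DNMT1 had 96.4, 96.4 and 94.6 TPM in ARID2 knockdown libraries and 91.6, 91.5 and 85.99 TPM in labelled Aiolos knockdown libraries, against 116, 115 and 119 TPM in control knockdown libraries. DNMT1 fell in ARID2 knockdown (-0.28 ± 0.03, adjusted p = 5.25e-07) and in labelled Aiolos knockdown libraries (-0.38 ± 0.03, adjusted p = 6.20e-09), and neither group overlapped with the controls. Because UHRF1 fell further, the ratio of DNMT1 to UHRF1 TPM averaged 10.99 ± 1.13 at 72 h, against 1.44 ± 0.04 in untreated cells (SD, n = 3 each). It averaged 2.63 ± 0.05 in ARID2 knockdown libraries and 4.33 ± 0.10 in labelled Aiolos knockdown libraries, against 2.02 ± 0.07 in control knockdown libraries. DNMT1 shares 83 of its 9796 annotated exon bases with S1PR2 on the same strand (GENCODE 29), and reads in them could have been counted to either gene.

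UHRF2, the paralog of UHRF1 with related domains, was lower at 24 h and stood higher again at 48 and 72 h, while UHRF1 kept falling. UHRF2 had 38.6, 40.04 and 37.9 TPM in untreated cells, 26.9, 28.96 and 29.8 TPM at 24 h, 33.8, 33.3 and 32.3 TPM at 48 h and 37.8, 34.5 and 35.9 TPM at 72 h. Each drug group lay wholly below untreated cells, at 72 h by a small margin. UHRF2 was thus lowest at 24 h (-0.43 ± 0.06, adjusted p = 1.90e-06) and did not pass at 72 h (-0.10 ± 0.06, adjusted p = 0.104). It rose in labelled Aiolos knockdown libraries (45.4, 43.2 and 51.4 TPM, against 35.3, 37.5 and 34.3 TPM in control knockdown libraries, 0.37 ± 0.06, adjusted p = 9.91e-06) and did not pass in ARID2 knockdown (34.96, 33.5 and 36.7 TPM, -0.03 ± 0.06, adjusted p = 0.715). UHRF1 made up 72.2% ± 0.90 of the summed UHRF1 and UHRF2 TPM in untreated cells, 58.5% ± 2.94 at 24 h, 22.9% ± 0.63 at 48 h and 13.6% ± 1.47 at 72 h (SD, n = 3 each). The share was 51.0% ± 1.80 in ARID2 knockdown libraries and 30.8% ± 2.98 in labelled Aiolos knockdown libraries, against 61.8% ± 0.62 in control knockdown libraries. In each comparison the groups did not overlap, which in an exact permutation test gives p = 0.1, the smallest that 3 libraries against 3 allow. A share within a library does not depend on how the library was scaled.

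Partners of methylation other than the 10 genes form a list of 18, of which 17 were tested. At 72 h 9 fell and 6 rose, with a median change of -0.18, where 31.6% of all genes tested fell and 48.1% rose, with a median of 0.15. The falls were led by PCNA, the DNA clamp that recruits DNMT1 (-2.59 ± 0.04, adjusted p = 2.02e-21), the DNA ligase LIG1 (-2.5 ± 0.06, adjusted p = 5.34e-19), the remodeller HELLS (-3.04 ± 0.07, adjusted p = 5.99e-19) and its partner CDCA7 (-3.01 ± 0.10, adjusted p = 3.80e-16). In ARID2 knockdown 4 of 17 fell and 5 rose (29.2% of all genes fell and 33.1% rose), which is near the share of all genes in both directions. There PCNA rose (0.30 ± 0.04, adjusted p = 1.89e-06) while CDCA7L (-0.38 ± 0.04, adjusted p = 2.12e-08) and the methionine adenosyltransferase MAT2A (-0.31 ± 0.03, adjusted p = 7.72e-08) fell. In labelled Aiolos knockdown libraries 8 fell and 6 rose (30.7% of all genes fell and 37.2% rose), with PCNA at -0.94 ± 0.04, adjusted p = 6.16e-14 and CDCA7 at -1.48 ± 0.10, adjusted p = 8.89e-11. PCNA thus averaged 728 ± 5.95 TPM in ARID2 knockdown libraries and 308 ± 21.1 TPM in labelled Aiolos knockdown libraries, against 590.3 ± 16.1 TPM in control knockdown libraries (SD, n = 3 each).

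Of the de novo methyltransferases, DNMT3B fell at 48 and 72 h and in both hairpin groups, and DNMT3A passed in none of these as lower. DNMT3B had 16.7, 14.8 and 16.5 TPM in untreated cells, 13.6, 15.5 and 12.2 TPM at 24 h, 7.404, 6.93 and 6.77 TPM at 48 h and 4.36, 4.501 and 4.995 TPM at 72 h. The 24 h group overlapped with untreated cells, and the 48 and 72 h groups lay wholly below both. The change was -1.08 ± 0.08, adjusted p = 1.81e-10 at 48 h and -1.60 ± 0.08, adjusted p = 3.37e-13 at 72 h. Its small change at 24 h (-0.21 ± 0.08, adjusted p = 0.0298) no longer passed when any 1 of untreated replicates 1 or 3 or 24 h replicates 1 or 3 was left out (adjusted p = 0.0667 to 0.187). Among the hairpin groups DNMT3B had 4.63, 4.96 and 4.53 TPM in ARID2 knockdown libraries and 4.72, 5.03 and 5.05 TPM in labelled Aiolos knockdown libraries, against 9.94, 11.5 and 10.3 TPM in control knockdown libraries. It fell in ARID2 knockdown (-1.02 ± 0.08, adjusted p = 1.30e-09) and in labelled Aiolos knockdown libraries (-0.96 ± 0.08, adjusted p = 2.08e-09). Its libraries in both hairpin groups overlapped with those at 72 h of drug. DNMT3B was also the single member whose difference between the 2 hairpin groups did not pass (-0.06, 95% interval -0.23 to 0.11).

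DNMT3A ran from 4.33 to 8.40 TPM over all libraries. It had 5.38, 5.58 and 5.99 TPM in untreated cells, 4.33, 4.51 and 4.87 TPM at 24 h, 6.16, 6.61 and 6.32 TPM at 48 h and 6.02, 6.73 and 5.95 TPM at 72 h. It fell at 24 h (-0.26 ± 0.07, adjusted p = 0.00512) and did not pass at 48 h (0.15 ± 0.07, adjusted p = 0.0769) or 72 h (0.12 ± 0.07, adjusted p = 0.143), where its sign turned under other scalings. Both hairpin groups stood above their controls, with 6.92, 7.15 and 6.17 TPM in ARID2 knockdown libraries and 8.403, 7.38 and 7.69 TPM in labelled Aiolos knockdown libraries, against 4.79, 5.23 and 4.66 TPM in control knockdown libraries. It rose in ARID2 knockdown (0.39 ± 0.07, adjusted p = 1.23e-04) and in labelled Aiolos knockdown libraries (0.58 ± 0.07, adjusted p = 8.47e-07). Summed over DNMT1, DNMT3A and DNMT3B, methyltransferase transcripts averaged 167 ± 5.89 TPM in untreated cells, 111 ± 1.75 at 24 h, 77.1 ± 0.81 at 48 h and 72.9 ± 1.95 at 72 h (SD, n = 3 each). The sum averaged 107 ± 1.71 TPM in ARID2 knockdown libraries and 102 ± 3.23 TPM in labelled Aiolos knockdown libraries, against 132 ± 1.73 TPM in control knockdown libraries. DNMT1 held most of it in every group.

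The TET genes parted from each other. TET2 was the member that rose in every drug and hairpin comparison with its control. It had 5.65, 5.23 and 4.99 TPM in untreated cells, 8.81, 9.63 and 10.3 TPM at 24 h, 13.8, 13.2 and 12.9 TPM at 48 h and 9.93, 11.1 and 10.7 TPM at 72 h. All drug groups lay wholly above untreated cells, highest at 48 h. The rise was 0.75 ± 0.08, adjusted p = 3.52e-08 at 24 h, 1.19 ± 0.08, adjusted p = 1.16e-11 at 48 h and 0.88 ± 0.08, adjusted p = 1.39e-09 at 72 h. TET2 had 10.2, 9.64 and 10.4 TPM in ARID2 knockdown libraries and 14.2, 12.4 and 15.4 TPM in labelled Aiolos knockdown libraries, against 6.12, 6.06 and 5.57 TPM in control knockdown libraries. Those groups lay wholly above the controls as well, with rises of 0.68 ± 0.08, adjusted p = 1.62e-07 in ARID2 knockdown and 1.11 ± 0.08, adjusted p = 7.07e-11 in labelled Aiolos knockdown libraries.

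TET1 moved down with the drug and in opposite directions in the hairpin groups. It had 8.91, 9.68 and 9.52 TPM in untreated cells, 6.43, 8.83 and 7.91 TPM at 24 h, 7.82, 8.01 and 6.88 TPM at 48 h and 5.78, 5.51 and 5.65 TPM at 72 h. All drug libraries lay below all untreated ones, at 24 h by a small margin, and TET1 fell most at 72 h (-0.64 ± 0.11, adjusted p = 2.82e-05). The smaller differences at 24 h (-0.26 ± 0.11, adjusted p = 0.0488) and 48 h (-0.28 ± 0.11, adjusted p = 0.0297) did not hold throughout when single libraries were left out. At 24 h 5 of the 6 libraries each ended the call when left out, all but 24 h replicate 2 (adjusted p = 0.0546 to 0.273), and at 48 h untreated replicates 2 and 3 and 48 h replicate 3 did (adjusted p = 0.0668 to 0.120). TET1 had 7.11, 6.72 and 6.400 TPM in ARID2 knockdown libraries and 12.4, 9.67 and 14.4 TPM in labelled Aiolos knockdown libraries, against 7.45, 8.91 and 8.57 TPM in control knockdown libraries. It rose in labelled Aiolos knockdown libraries (0.49 ± 0.11, adjusted p = 7.12e-04), where its 3 libraries were spread more widely than in any other group. Its fall in ARID2 knockdown (-0.26 ± 0.11, adjusted p = 0.0463) did not pass when control replicate 2 or 3 or any ARID2 replicate was left out (adjusted p = 0.0524 to 0.151).

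TET3 had 17.3, 16.4 and 18.9 TPM in untreated cells, 15.8, 15.1 and 15.9 TPM at 24 h, 12.5, 11.8 and 11.1 TPM at 48 h and 16.9, 17.5 and 15.9 TPM at 72 h. It was lowest at 48 h (-0.53 ± 0.06, adjusted p = 1.72e-07), below untreated cells in every library, and overlapped with untreated cells again at 72 h (-0.06 ± 0.06, adjusted p = 0.372, 95% interval -0.19 to 0.07). Under median-of-ratios scaling, which lowered the median of all genes at 72 h by 0.15, TET3 fell at 72 h too (-0.22, adjusted p = 0.00295). The difference at 24 h (-0.15 ± 0.06, adjusted p = 0.0366) did not pass without untreated replicate 1 or 3 or 24 h replicate 1 or 2 (adjusted p = 0.0570 to 0.189). TET3 stood above its control in hairpin cells, with 20.02, 19.1 and 18.7 TPM in ARID2 knockdown libraries and 27.4, 23.6 and 26.97 TPM in labelled Aiolos knockdown libraries, against 12.2, 12.4 and 12.7 TPM in control knockdown libraries. It rose in ARID2 knockdown (0.59 ± 0.06, adjusted p = 8.08e-08) and in labelled Aiolos knockdown libraries (1.01 ± 0.06, adjusted p = 2.13e-11). The summed TET transcripts differed little along the drug series, with means of 32.2 ± 1.04 TPM in untreated cells, 32.9 ± 1.68 at 24 h, 32.7 ± 1.61 at 48 h and 32.96 ± 0.95 at 72 h (SD, n = 3 each). TET2 took a larger part of that sum in the drug groups. Among the hairpin groups the sum averaged 36.1 ± 1.07 TPM in ARID2 knockdown libraries and 52.1 ± 5.81 TPM in labelled Aiolos knockdown libraries, against 26.6 ± 0.83 TPM in control knockdown libraries.

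Of 17 genes that act after the TET enzymes or feed them with cofactor, 10 rose and 6 fell at 72 h (48.1% of all genes rose and 31.6% fell), with a median of 0.35 against 0.15 over all genes. OGT, the glycosyltransferase that binds TET proteins, rose (1.40 ± 0.04, adjusted p = 4.45e-17), as did the repair ligase LIG3 (1.23 ± 0.05, adjusted p = 1.56e-14). PARP1, an enzyme of DNA repair, fell (-0.74 ± 0.02, adjusted p = 8.66e-17). In ARID2 knockdown 5 rose and 6 fell, near the 33.1% and 29.2% of all genes, led by GADD45A, a stress-induced gene linked to demethylation (221 ± 1.96 TPM in ARID2 knockdown libraries, against 62.6 ± 0.22 TPM in control knockdown libraries, 1.81 ± 0.04, adjusted p = 2.44e-17). IDH1, which makes the cofactor of TET enzymes, fell there (-1.0 ± 0.05, adjusted p = 4.53e-12). Labelled Aiolos knockdown libraries had 5 higher and 6 lower (37.2% and 30.7% of all genes), with GADD45A at 1.06 ± 0.04, adjusted p = 3.24e-14 and PARP1 at -0.32 ± 0.02, adjusted p = 1.86e-10. Another list of 12 genes, which shares MBD4 with the one before, holds readers of CpG sites. Of these 12 readers of methylated or free CpG sites, 9 rose and 1 fell at 72 h (48.1% and 31.6% of all genes), and MBD2, which links methylated DNA to the NuRD complex, was the gene that fell (-0.72 ± 0.05, adjusted p = 1.55e-11). CXXC4 (0.97 ± 0.07, adjusted p = 8.78e-11), CXXC5 (0.56 ± 0.06, adjusted p = 1.40e-08) and ZBTB33 (0.71 ± 0.07, adjusted p = 2.15e-08) rose. In ARID2 knockdown (33.1% of all genes higher, 29.2% lower) 3 readers rose, among them KDM2A (0.63 ± 0.03, adjusted p = 2.20e-12), and 4 fell, among them CXXC5 (-0.85 ± 0.06, adjusted p = 6.71e-11). In labelled Aiolos knockdown libraries 8 rose and 2 fell (37.2% and 30.7% of all genes), with MBD2 at -0.74 ± 0.05, adjusted p = 2.15e-11 and CXXC5 at 0.74 ± 0.06, adjusted p = 4.15e-10.

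The PRC2 core did not move as a unit. EZH2 had 114, 108 and 112 TPM in untreated cells, 70.8, 71.7 and 71.3 TPM at 24 h, 34.05, 32.2 and 32.3 TPM at 48 h and 30.97, 29.96 and 31.8 TPM at 72 h. No neighbouring groups overlapped, and most of the fall had come by 48 h. It changed by -0.64 ± 0.04, adjusted p = 1.17e-11 at 24 h, -1.73 ± 0.04, adjusted p = 5.04e-19 at 48 h and -1.82 ± 0.04, adjusted p = 1.39e-19 at 72 h. With hairpins, EZH2 had 78.01, 81.4 and 83.6 TPM in ARID2 knockdown libraries and 65.6, 65.6 and 70.3 TPM in labelled Aiolos knockdown libraries, against 93.7, 91.2 and 91.8 TPM in control knockdown libraries. Both lay wholly below the controls, with changes of -0.19 ± 0.04, adjusted p = 2.51e-04 in ARID2 knockdown and -0.45 ± 0.04, adjusted p = 1.73e-09 in labelled Aiolos knockdown libraries.

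SUZ12, the scaffold, fell in ARID2 knockdown and at every drug time. It had 47.4, 51.5 and 51.4 TPM in ARID2 knockdown libraries and 93.6, 90.02 and 107 TPM in labelled Aiolos knockdown libraries, against 99.4, 102 and 97.5 TPM in control knockdown libraries. The ARID2 knockdown libraries lay far below both other groups, which overlapped with each other. SUZ12 fell in ARID2 knockdown (-0.98 ± 0.06, adjusted p = 1.37e-11), ranking as number 423 of 12559 genes from the largest fall, and did not pass in labelled Aiolos knockdown libraries (-0.04 ± 0.06, adjusted p = 0.513, 95% interval -0.16 to 0.08). Set directly against each other, ARID2 knockdown was lower than labelled Aiolos knockdown (-0.93 ± 0.06, adjusted p = 1.85e-11). Along the drug series SUZ12 had 104, 106 and 104 TPM in untreated cells, 70.2, 71.9 and 73.6 TPM at 24 h, 57.95, 54.6 and 51.02 TPM at 48 h and 61.9, 55.7 and 61.9 TPM at 72 h. It fell at 24 h (-0.54 ± 0.06, adjusted p = 7.87e-08), 48 h (-0.93 ± 0.06, adjusted p = 6.94e-12) and 72 h (-0.80 ± 0.06, adjusted p = 8.40e-11), and the 48 and 72 h groups overlapped. ARID2 knockdown libraries and the 48 h libraries overlapped in SUZ12, while in EZH2 they did not.

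EED, the subunit that reads the mark, changed less than EZH2 and SUZ12 at each drug time. It had 21.3, 19.6 and 19.3 TPM in untreated cells, 17.7, 17.7 and 19.2 TPM at 24 h, 12.6, 12.4 and 11.7 TPM at 48 h and 14.8, 15.2 and 14.9 TPM at 72 h. It fell at 48 h (-0.67 ± 0.07, adjusted p = 1.35e-08) and 72 h (-0.40 ± 0.07, adjusted p = 1.60e-05), was lowest at 48 h, and did not pass at 24 h (-0.13 ± 0.07, adjusted p = 0.0863) except under median-of-ratios or quantile scaling. Neither hairpin group passed, with 17.4, 15.6 and 17.9 TPM in ARID2 knockdown libraries and 13.8, 15.4 and 15.02 TPM in labelled Aiolos knockdown libraries, against 16.1, 17.1 and 14.3 TPM in control knockdown libraries. Under other settings EED passed as lower in labelled Aiolos knockdown libraries. It did so under median-of-ratios scaling (-0.15, adjusted p = 0.0409), quantile normalization (-0.18, adjusted p = 0.0191) and without control replicate 3 (-0.16, adjusted p = 0.0434). Each hairpin group overlapped with the controls but not with the other hairpin group. EED shares 66 of its 7016 annotated exon bases with MIR6755. The ratio of EZH2 to SUZ12 TPM was 1.06 ± 0.04 in untreated cells, 0.991 ± 0.02 at 24 h, 0.603 ± 0.03 at 48 h and 0.517 ± 0.02 at 72 h (SD, n = 3 each). Among the hairpin groups it went the other way in ARID2 knockdown, with 1.62 ± 0.03 in ARID2 knockdown libraries and 0.696 ± 0.04 in labelled Aiolos knockdown libraries, against 0.926 ± 0.03 in control knockdown libraries. Pseudogenes of TET1, EZH2 and SUZ12 are annotated and were not rows of the table, so reads from them could have been counted to the genes, that of SUZ12 being itself transcribed.

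**Figure D2:**
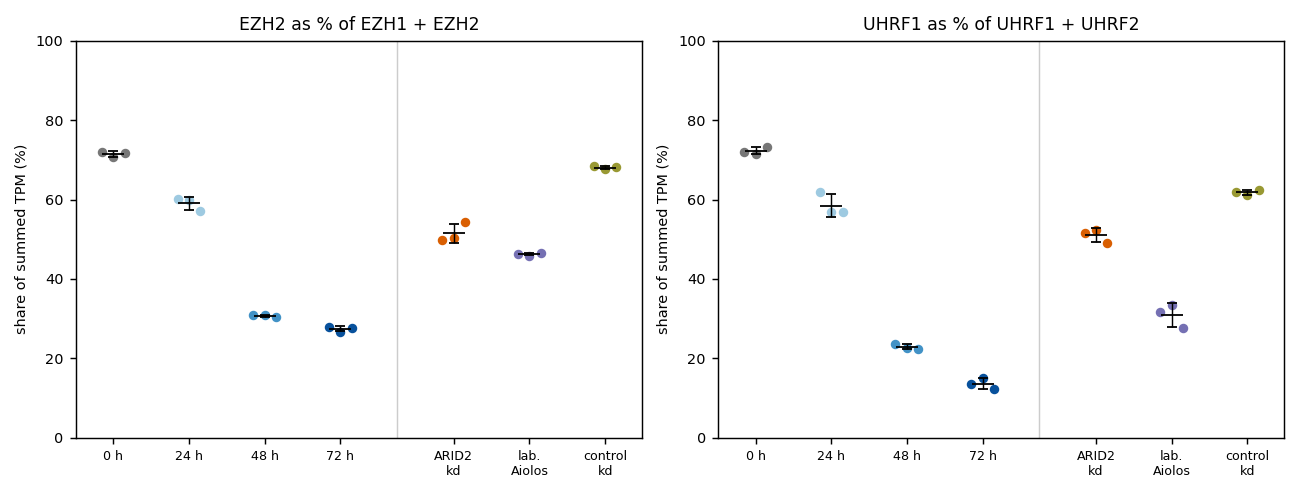
Share of EZH2 in the summed EZH1 and EZH2 TPM (left) and of UHRF1 in the summed UHRF1 and UHRF2 TPM (right), in percent, for each library (points), with group mean and SD (bars, n = 3). Groups run as in the plot of TPM by library, and EZH2 goes to 27.5% and UHRF1 to 13.6% at 72 h, against 71.5% and 72.2% in untreated cells.

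EZH1, the alternative catalytic subunit, rose at every drug time and in both hairpin groups. It had 44.8, 44.9 and 43.95 TPM in untreated cells, 46.9, 48.1 and 53.4 TPM at 24 h, 76.4, 72.2 and 73.8 TPM at 48 h and 79.9, 82.3 and 82.8 TPM at 72 h (24 h, 0.15 ± 0.05, adjusted p = 0.0124, and 72 h, 0.86 ± 0.05, adjusted p = 1.73e-12). Hairpin cells had 78.7, 80.01 and 70.4 TPM in ARID2 knockdown libraries and 75.9, 77.4 and 81 TPM in labelled Aiolos knockdown libraries, against 43.3, 43.5 and 42.98 TPM in control knockdown libraries, with rises of 0.80 ± 0.05, adjusted p = 2.04e-11 and 0.84 ± 0.05, adjusted p = 6.22e-12. The EZH2 share of the pair was 71.5% ± 0.64 in untreated cells, 59.1% ± 1.64 at 24 h, 30.7% ± 0.21 at 48 h and 27.5% ± 0.67 at 72 h (SD, n = 3 each). It was 51.5% ± 2.45 in ARID2 knockdown libraries and 46.2% ± 0.33 in labelled Aiolos knockdown libraries, against 68.1% ± 0.35 in control knockdown libraries. As with UHRF1, no groups compared overlapped, and the exact p was 0.1 in each. The rise of EZH1 at 72 h did not differ detectably from its rise in ARID2 knockdown (difference 0.06, 95% interval -0.09 to 0.20) or in labelled Aiolos knockdown libraries (0.02, -0.12 to 0.17).

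The accessory subunits of PRC2 form a list of 11, EZH1 included, of which 10 were tested. At 72 h 7 fell and 3 rose (31.6% and 48.1% of all genes), with a median of -0.47 against 0.15 over all genes. The histone chaperone RBBP7 (-0.95 ± 0.04, adjusted p = 8.19e-15), PHF19, which guides PRC2 to chromatin (-0.89 ± 0.05, adjusted p = 8.10e-13), and EPOP, which ties PRC2 to elongin (-1.17 ± 0.08, adjusted p = 1.80e-11), fell. In ARID2 knockdown 3 fell and 4 rose (29.2% and 33.1% of all genes), with RBBP4 at -0.54 ± 0.04, adjusted p = 1.08e-09, and PHF19 did not pass (0.11 ± 0.05, adjusted p = 0.0602). In labelled Aiolos knockdown libraries 3 fell and 5 rose (30.7% and 37.2% of all genes), with RBBP7 at -0.45 ± 0.04, adjusted p = 2.77e-09 and PHF19 at 0.23 ± 0.05, adjusted p = 2.32e-04.

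Polycomb repressive complex 1 (PRC1), of which some forms bind the mark laid by PRC2, was represented by 23 tested genes of 24 listed. At 72 h 11 rose and 3 fell (48.1% and 31.6% of all genes), with a median of 0.12 against 0.15 over all genes, so the share that rose was near that of all genes. In ARID2 knockdown 8 rose and 4 fell (33.1% and 29.2% of all genes), and in labelled Aiolos knockdown libraries 10 rose and 5 fell (37.2% and 30.7% of all genes). CBX7, a reader of the mark, had 69.5 ± 2.19 TPM at 72 h, against 30.3 ± 1.04 TPM in untreated cells (1.17 ± 0.05, adjusted p = 4.74e-14). BCOR (0.70 ± 0.05, adjusted p = 5.44e-11) and SCMH1 (0.75 ± 0.06, adjusted p = 8.22e-10) rose at 72 h and SCML2 fell (-2.69 ± 0.14, adjusted p = 3.56e-13). PHC1 rose in ARID2 knockdown (1.30 ± 0.13, adjusted p = 2.72e-08), as did CBX6 (0.32 ± 0.03, adjusted p = 8.01e-08). In labelled Aiolos knockdown libraries BCOR rose (0.60 ± 0.05, adjusted p = 1.25e-09) and L3MBTL2 fell (-0.56 ± 0.05, adjusted p = 1.34e-09).

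Genes that oppose or erase Polycomb marks form a list of 16. At 72 h 14 of them rose and 2 fell (48.1% and 31.6% of all genes), with a median of 0.46 against 0.15 over all genes. KDM6B, a demethylase of the PRC2 mark, had 15.7 ± 2.34 TPM at 72 h, against 4.74 ± 0.89 TPM in untreated cells (1.54 ± 0.10, adjusted p = 2.52e-11). ASXL3 (1.76 ± 0.12, adjusted p = 2.12e-11), a partner of the deubiquitinase BAP1, and SETD2 (0.89 ± 0.06, adjusted p = 3.54e-11), which places an active mark, rose as well. NSD2, a methyltransferase known as an oncogene of myeloma, fell to 16.6 ± 0.66 TPM at 72 h, against 58.96 ± 2.03 TPM in untreated cells (-1.77 ± 0.04, adjusted p = 2.03e-19). In labelled Aiolos knockdown libraries 12 rose and 1 fell (37.2% and 30.7% of all genes), with ASXL3 at 2.70 ± 0.12, adjusted p = 5.91e-14 and KDM6A at 0.53 ± 0.05, adjusted p = 2.02e-08. In ARID2 knockdown 6 rose and 5 fell (33.1% and 29.2% of all genes), NSD2 (-0.54 ± 0.04, adjusted p = 1.60e-10) and FOXK2 (-0.55 ± 0.04, adjusted p = 7.01e-10) among those that fell, and KDM6B did not pass (0.01 ± 0.10, adjusted p = 0.915).

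**Figure D3:**
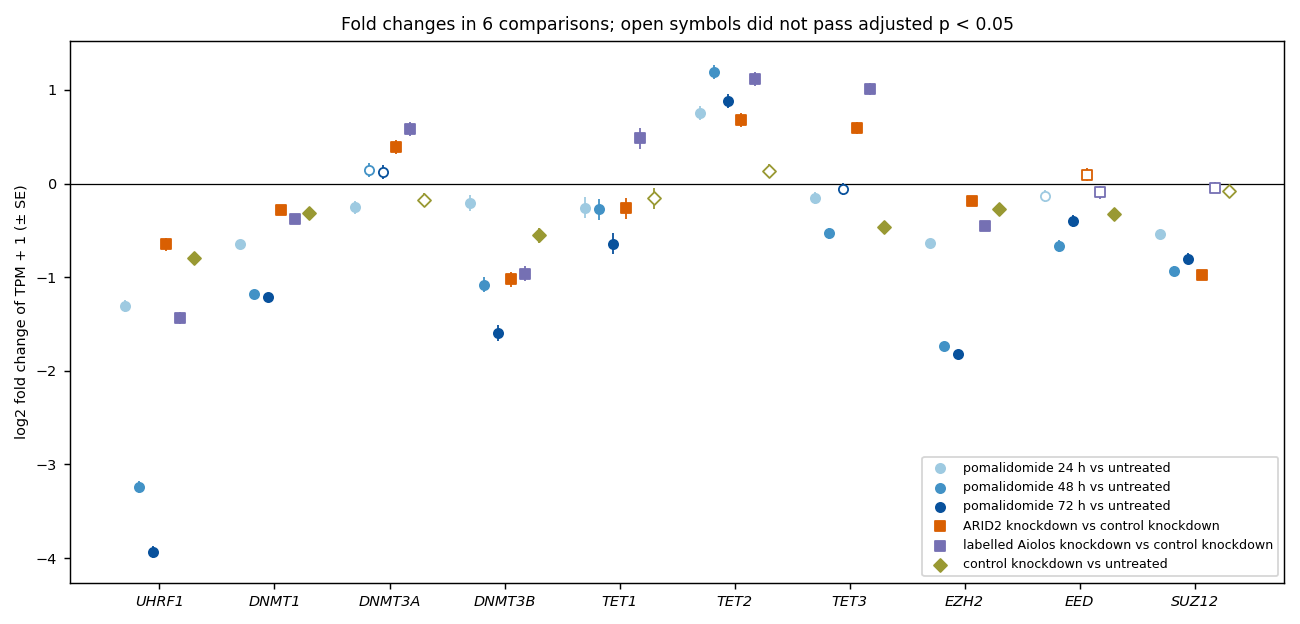
Log2 fold change of TPM + 1 (y axis, with SE bars) of the 10 genes (x axis) at 3 drug times against untreated cells, in 2 hairpin groups against control knockdown, and in control knockdown against untreated cells. Filled symbols passed an adjusted p of 0.05 and open ones did not. UHRF1 goes to -3.94 at 72 h, TET2 is above 0 throughout, and SUZ12 is near -1 in ARID2 knockdown and near 0 in labelled Aiolos knockdown libraries.

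Counted over the 10 genes, 8 fell and 1 rose at 24 h, where 66.1% of all genes tested passed (31.0% lower, 35.1% higher). With the fit held to the groups of that comparison, 5 of the 8 still passed as lower, since DNMT3B, TET1 and TET3 did not. At 48 h 8 fell and 1 rose (34.8% of all genes lower, 43.8% higher), and at 72 h 7 fell and 1 rose (31.6% lower, 48.1% higher). Of all genes that passed at 72 h, 60.4% were higher, and 50% were under median-of-ratios scaling. The 3 drug times share the untreated libraries. ARID2 knockdown had 6 lower and 3 higher (29.2% lower, 33.1% higher, 62.2% in either direction), and labelled Aiolos knockdown libraries had 4 lower and 4 higher (30.7% lower, 37.2% higher, 67.9% in either direction), with the control knockdown libraries shared by both. In either direction 9 of the 10 passed at 24 h (66.1% of all genes), 9 at 48 h (78.7%), 8 at 72 h (79.8%), 9 in ARID2 knockdown (62.2%) and 8 in labelled Aiolos knockdown libraries (67.9%), so at 72 h the share was near that of all genes. The share of members lower in the drug comparisons is above that of all genes. Between drug times, 7 members were lower and 2 higher at 48 h than at 24 h (26.1% of all genes lower, 32.1% higher), and 4 were lower and 2 higher at 72 h than at 48 h (16.5% lower, 31.6% higher, with 48.0% in either direction against 58.2% for 48 h against 24 h). In the 72 h against 48 h comparison 65.7% of the genes that passed were higher, against 46.1% under median-of-ratios scaling and 53.5% under quantile normalization. Under these scalings EZH2 and DNMT1, which did not pass there, were lower at 72 h than at 48 h (EZH2 -0.17 and DNMT1 -0.12 under median-of-ratios scaling). Set against each other, ARID2 knockdown was higher than labelled Aiolos knockdown in 4 members and lower in 5 (30.2% of all genes higher, 35.7% lower, 65.9% in either direction). UHRF1 (0.79 ± 0.06, adjusted p = 1.41e-09), EZH2 (0.27 ± 0.04, adjusted p = 3.38e-06), DNMT1 (0.10 ± 0.03, adjusted p = 0.0200) and EED (0.19 ± 0.07, adjusted p = 0.0175) were higher in ARID2 knockdown. TET1 (-0.75 ± 0.11, adjusted p = 6.68e-06), TET2 (-0.44 ± 0.08, adjusted p = 3.84e-05), TET3 (-0.41 ± 0.06, adjusted p = 9.50e-06), DNMT3A (-0.19 ± 0.07, adjusted p = 0.0328) and SUZ12 were lower there. With the fit held to these 2 groups, DNMT1, EED and DNMT3A did not pass (adjusted p = 0.0737, 0.0524 and 0.0829), which left 2 members higher.

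The drug effect at 72 h and the effect of each hairpin share no libraries, and their difference was tested gene by gene. Against the ARID2 knockdown effect the drug effect was lower in 8 members and higher in 0 (29.1% of all genes lower, 40.4% higher, 69.5% in either direction), from -3.28 ± 0.09 in UHRF1 (adjusted p = 7.68e-17) and -1.63 ± 0.05 in EZH2 (adjusted p = 8.88e-16) to -0.27 ± 0.11 in DNMT3A (adjusted p = 0.0269). DNMT3A did not pass without untreated replicate 3, 72 h replicate 1 or 3, control replicate 1 or 3, or ARID2 replicate 1 or 2 (adjusted p = 0.0525 to 0.0727). TET1 (-0.38, adjusted p = 0.0401) did not pass with no filter on low values (adjusted p = 0.0657), or without untreated replicate 2 or 3, any 72 h replicate, control replicate 1, or ARID2 replicate 1 or 2 (adjusted p = 0.0504 to 0.107). SUZ12 fell by 0.80 with the drug and 0.98 with the ARID2 hairpin, and the difference did not pass (0.18, 95% interval 0.01 to 0.35, adjusted p = 0.0606, higher at an unadjusted p under 0.05), though it passed as higher in a fit without labelled Aiolos knockdown libraries (adjusted p = 0.0283), in one held to the groups compared (adjusted p = 0.0236) and without 72 h replicate 2 (0.23, adjusted p = 0.0191). The difference in TET2 did not pass either (0.20, 95% interval -0.02 to 0.42). Against the effect in labelled Aiolos knockdown libraries the drug effect was lower in 9 members and higher in 0 (28.0% of all genes lower, 35.0% higher, 63.0% in either direction), including SUZ12 (-0.76 ± 0.08, adjusted p = 8.61e-08). TET2 did not pass (-0.23, 95% interval -0.46 to -0.01, adjusted p = 0.0618). It passed as lower under median-of-ratios scaling (-0.33, adjusted p = 0.00830), under quantile normalization (-0.27, adjusted p = 0.0242), without untreated replicate 3 (adjusted p = 0.0467) and without labelled Aiolos replicate 2 (adjusted p = 0.0115).

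Control knockdown libraries themselves differed from untreated cells. UHRF1 fell in them (-0.80 ± 0.06, adjusted p = 7.03e-09), ranking as number 79 of 12559 genes from the largest fall, and DNMT3B (-0.55 ± 0.08, adjusted p = 1.52e-05), TET3 (-0.46 ± 0.06, adjusted p = 5.78e-06), EED (-0.33 ± 0.07, adjusted p = 4.70e-04), DNMT1 (-0.31 ± 0.03, adjusted p = 4.31e-07) and EZH2 (-0.27 ± 0.04, adjusted p = 7.60e-06) fell too. In all, 6 of the 10 genes fell and 0 rose, where 28.4% of all genes were lower and 17.3% higher (45.7% in either direction). In limma 0 of the 10 were higher at an unadjusted p under 0.05 too. TET2 was at 0.14 ± 0.08, adjusted p = 0.148 and SUZ12 at -0.07 ± 0.06, adjusted p = 0.308. Of 40 S phase genes 24 fell and 1 rose in the same comparison (median -0.17), and 0 of the 40 fell further than UHRF1. The hairpin effects above are measured from these controls, and transduction, the control hairpin and time in culture cannot be told apart in their difference from untreated cells.

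Genes of DNA replication and S phase moved with the maintenance methylation and EZH2 transcripts. All 40 listed S phase genes fell at each drug time, with medians of -0.91, -2.21 and -2.53 at 24, 48 and 72 h. Over all genes the medians were 0.03, 0.08 and 0.15, and 31.0%, 34.8% and 31.6% fell. TYMS (-3.99 ± 0.03, adjusted p = 5.71e-26), RRM2 (-4.21 ± 0.06, adjusted p = 5.76e-22), MCM4 (-3.36 ± 0.05, adjusted p = 7.44e-22) and MCM6 (-2.84 ± 0.03, adjusted p = 7.93e-23) had the smallest p-values at 72 h. In ARID2 knockdown 33 of the 40 fell (median -0.53, against 0.02 over all genes, of which 29.2% fell), with CDC6 at -1.26 ± 0.06, adjusted p = 3.81e-13. In labelled Aiolos knockdown libraries 39 fell (median -0.91, against 0.05 over all genes, of which 30.7% fell), with MCM6 at -1.77 ± 0.03, adjusted p = 6.75e-19. The part of the S phase genes in the changes of the 10 genes was not tested. UHRF1 fell further than all but 6, 2 and 3 of the 40 S phase genes at 24, 48 and 72 h. EZH2 fell less than 35, 32 and 32 of them and DNMT1 less than 35, 39 and 37. In ARID2 knockdown 15 S phase genes fell further than UHRF1, 4 further than DNMT3B and 33 further than EZH2.

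Measured against the median S phase gene of the same library, EZH2 stood 0.67 ± 0.09 log2 units above it in untreated cells, 1.02 ± 0.02 at 24 h, 1.53 ± 0.04 at 48 h and 1.71 ± 0.05 at 72 h (SD, n = 3 each). DNMT1 stood 1.05 ± 0.11 above it in untreated cells, 1.39 ± 0.04 at 24 h, 2.47 ± 0.01 at 48 h and 2.69 ± 0.06 at 72 h. UHRF1 went the other way, at 0.53 ± 0.10 in untreated cells, 0.21 ± 0.09 at 24 h, -0.11 ± 0.07 at 48 h and -0.55 ± 0.18 at 72 h. With hairpins, UHRF1 stood at -0.12 ± 0.04 in ARID2 knockdown libraries and -0.53 ± 0.10 in labelled Aiolos knockdown libraries, against 0.03 ± 0.02 in control knockdown libraries. EZH2 stood at 1.01 ± 0.06 in ARID2 knockdown libraries and 1.12 ± 0.03 in labelled Aiolos knockdown libraries, against 0.70 ± 0.04 in control knockdown libraries. These values describe the libraries and carry no test.

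**Figure D4:**
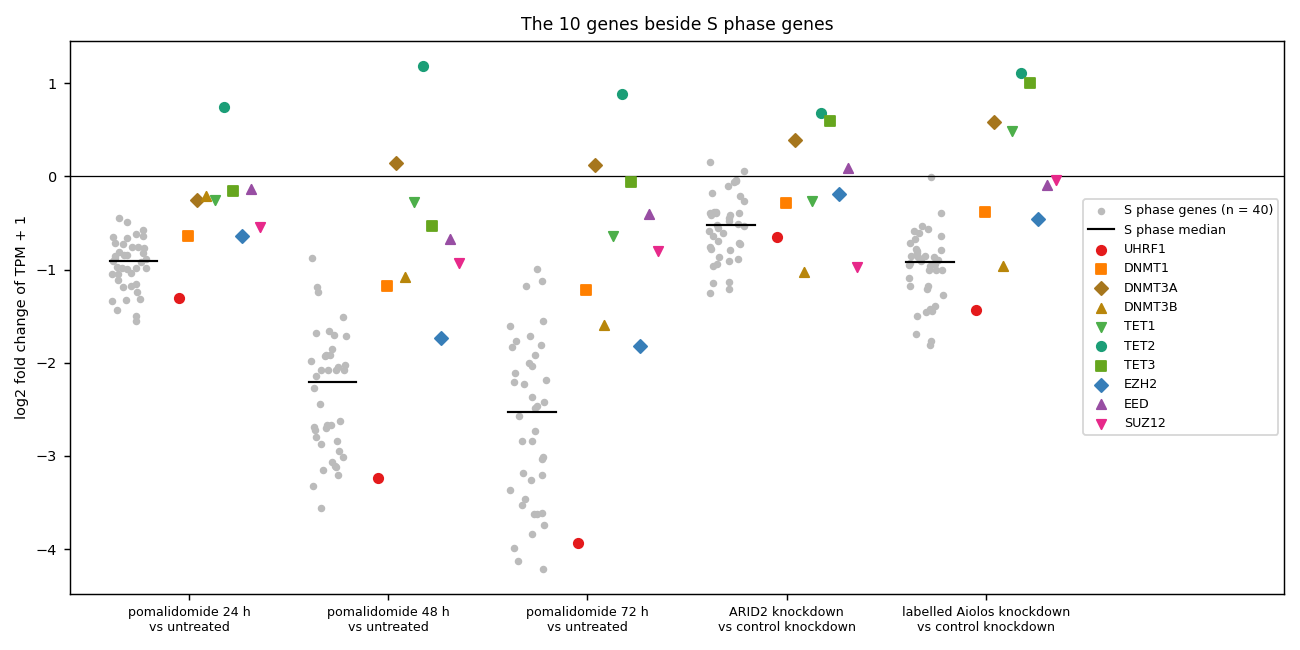
Log2 fold change of TPM + 1 (y axis) of 40 S phase genes (grey points, median as a bar) and of the 10 genes (coloured symbols) in 5 comparisons (x axis). UHRF1 lies at or near the lower end of the S phase genes with pomalidomide, EZH2 and DNMT1 lie above their median, and TET2 lies above 0 in all 5.

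A list of 18 genes for the E2F and RB family, which times the genes of S phase, also holds MYBL2, a gene of the MYB family. Of these 18, 14 fell and 3 rose at 72 h (31.6% and 48.1% of all genes), with a median of -0.96 against 0.15 over all genes. In ARID2 knockdown 10 fell and 3 rose (29.2% and 33.1% of all genes), with a median of -0.34 against 0.02. In labelled Aiolos knockdown libraries 9 fell and 3 rose (30.7% and 37.2% of all genes), with a median of -0.18 against 0.05. E2F1 had 14.9 ± 0.44 TPM at 72 h, against 219.6 ± 4.89 TPM in untreated cells (-3.80 ± 0.05, adjusted p = 2.74e-22). MYBL2 (-3.53 ± 0.04, adjusted p = 4.13e-23), E2F2 (-2.83 ± 0.05, adjusted p = 3.19e-21) and TFDP1, a dimer partner of E2F proteins (-1.68 ± 0.03, adjusted p = 5.54e-20), fell too. E2F1 had 132 ± 1.68 TPM in ARID2 knockdown libraries (-0.69 ± 0.05, adjusted p = 4.08e-10) and 67.8 ± 4.65 TPM in labelled Aiolos knockdown libraries (-1.64 ± 0.05, adjusted p = 4.23e-16), against 214 ± 5.12 TPM in control knockdown libraries. E2F2 fell in ARID2 knockdown (-0.95 ± 0.05, adjusted p = 6.34e-13) and in labelled Aiolos knockdown libraries (-0.90 ± 0.05, adjusted p = 8.24e-13), and MYBL2 fell in ARID2 knockdown (-0.74 ± 0.04, adjusted p = 5.45e-12).

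Over the 21 libraries, UHRF1, DNMT1 and EZH2 were the most alike of the 10 genes, with a Pearson r of 0.97 for UHRF1 with DNMT1, 0.97 for UHRF1 with EZH2 and 0.96 for DNMT1 with EZH2 on the log2 scale. TET2 ran against them, at -0.76 with UHRF1, -0.80 with DNMT1 and -0.68 with EZH2. SUZ12 followed EZH2 less closely (0.63), and EED and SUZ12 were at 0.40. The libraries fall into 7 groups, so these values describe differences between groups. Among 9878 genes averaging at least 5 TPM, those most like EZH2 were HMGN1 (0.998), HELLS (0.996) and CLSPN (0.996). The 3 most like UHRF1 were TP73 (0.992), RRM1 (0.991) and TMEM106C (0.990), and for DNMT1 they were NCAPD3 (0.987), NT5DC2 (0.985) and RFC5 (0.984). For TET2 they were NOTCH2 (0.966), FAM214A (0.965) and ORAI3 (0.963), for SUZ12 SFXN1 (0.97), VPS35 (0.969) and INPP5F (0.962), and for DNMT3B TPGS2 (0.966), GSTO1 (0.955) and GALNT14 (0.951). The closest genes were SMARCC2 for DNMT3A (0.930), SYNE2 for TET1 (0.918), KCMF1 for TET3 (0.913) and GAR1 for EED (0.931).

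Genes that DNA methylation or Polycomb commonly silences were mostly below 1 TPM. Of 22 germline genes usually silenced by methylation, 16 were in the table and 3 averaged at least 1 TPM in untreated cells and in every other group. SYCP3, a meiotic chromosome protein, held most of their sum and fell to 34.2 ± 1.02 TPM at 72 h, against 88.7 ± 3.32 TPM in untreated cells (-1.35 ± 0.06, adjusted p = 1.17e-13). SOHLH2 fell (-0.72 ± 0.18, adjusted p = 0.00116) and FKBP6 rose (0.62 ± 0.24, adjusted p = 0.0209) at levels near 1 to 2 TPM. Neither hairpin group passed for SYCP3 (-0.09 ± 0.06, adjusted p = 0.224 in ARID2 knockdown and 0.04 ± 0.06, adjusted p = 0.642 in labelled Aiolos knockdown libraries). Of 28 developmental genes usually silenced by Polycomb, 24 were in the table, and 4 averaged at least 1 TPM in untreated cells and 3 at 72 h. CDKN1C, an inhibitor of cell division, had 18.7 ± 2.06 TPM at 72 h, against 5.800 ± 0.43 TPM in untreated cells (1.53 ± 0.09, adjusted p = 2.07e-12), and 13.7 ± 1.07 TPM in labelled Aiolos knockdown libraries, against 5.17 ± 0.20 TPM in control knockdown libraries (1.25 ± 0.09, adjusted p = 1.11e-10). ARID2 knockdown did not pass (4.902 ± 0.32 TPM, -0.07 ± 0.09, adjusted p = 0.534). LHX2 fell at 72 h (-1.44 ± 0.19, adjusted p = 8.14e-07) and rose in ARID2 knockdown (1.0 ± 0.19, adjusted p = 1.35e-04), as did GATA4 (0.48 ± 0.09, adjusted p = 1.70e-04). HOXB7 fell in labelled Aiolos knockdown libraries (-1.31 ± 0.10, adjusted p = 8.46e-10). LHX2, GATA4 and HOXB7 lay within a small sum, as all 24 genes together had 18.8 to 21.3 TPM in ARID2 knockdown libraries. That sum was 22.6 to 26.1 TPM in labelled Aiolos knockdown libraries, against 16.1 to 16.6 TPM in control knockdown libraries. Summed over the 24 developmental genes, TPM ran from 25.7 to 29.8 at 72 h, against 18.1 to 20.2 in untreated cells, and CDKN1C made up most of the sum at 72 h. Summed over the 16 germline genes, it ran from 36.1 to 40.8 at 72 h, against 89.3 to 95.7 in untreated cells.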

How the data were processed

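RNA-seq libraries were made with the TruSeq RNA Sample Prep Kit v2, per the labels' protocols. The authors deposited 1 table of TPM values (a relative abundance that corrects for gene length) for 17691 symbols and 21 libraries. The submitters' processing notes name hg38, and the sources used here give no aligner, quantifier or annotation. TPM keep no read counts, so depth is unknown and no counting interval is given. Listed TPM summed to 951444 to 968652 a library. Column names match the sample titles, and 0 columns were left unmapped.

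Genes at 1 TPM or more in at least 3 libraries were kept (12559). A single limma 3.58.1 model (R 4.3.3) over all 7 groups was fitted to log2(TPM + 1), with trended empirical Bayes (14 residual and 5.28 prior degrees of freedom), 11 contrasts, two-sided tests and Benjamini-Hochberg adjustment within each contrast at 0.05. Shares of paralogs were compared with exact two-sided permutation tests. The code was tested on simulated data. Other tables used Python 3.11.15 and pandas 2.3.3. Gene positions are from GENCODE 29 (17494 symbols matched, 197 not) and promoters from RefSeq.

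The 10 genes and all gene lists were chosen with earlier results of these data known. The text names all 10 genes, the 2 targeted genes, EZH1 and UHRF2, from each list up to 4 genes with the smallest p at 72 h and up to 2 in each hairpin comparison, and the 3 genes most alike to each member. Some are also given in other comparisons. A gene that this rule names is not reported here. Nothing says that replicates came from separate cultures beyond the term biological replicates. Replicate numbers did not pair the libraries (closing section). Alternatives were another pseudocount, no filter, a filter at 5 TPM, other scalings, a replicate block, fits held to the groups compared, a fit without labelled Aiolos knockdown libraries and leaving out each library.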

Additional observations from a re-analysis of the deposited data

Results flagged for a closer look

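Between 24 and 48 h of pomalidomide the change from untreated cells differed, by limma's test of the later against the earlier time, in 9 of the 10 genes. Of all genes tested, 58.2% passed in that comparison. At 48 h, set against 24 h, the log2 difference was -1.93 in UHRF1, -1.09 in EZH2, -0.87 in DNMT3B, -0.54 in EED, -0.53 in DNMT1, -0.39 in SUZ12 and -0.38 in TET3, and it was 0.44 in TET2 and 0.40 in DNMT3A. TET1 did not pass (-0.02).

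At 72 h, set against 48 h, the difference passed in 6 genes. UHRF1 (-0.70), DNMT3B (-0.52), TET1 (-0.36) and TET2 (-0.31) were lower at 72 h, and TET3 (0.47) and EED (0.27) were higher. TET2, TET3 and EED thus passed in opposite directions in the 2 intervals. The untreated libraries are shared by the effects at all times and cancel in these differences.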

How the results depend on the processing

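Of the values for single genes, 815 kept direction and call under the alternatives other than leaving out libraries, 16 gained and 13 lost the call and 6 turned in sign. When single libraries were left out 724 kept both, 7 gained, 44 lost and 5 turned. Counts moved by over 1.5 times in few cases. With fits held to the groups compared, 5 members were lower at 24 h, 2 were higher in ARID2 than in labelled Aiolos knockdown, and 1 (SUZ12) was higher in the 72 h effect than in the ARID2 knockdown effect, also 1 in the fit without labelled Aiolos knockdown libraries, an alternative chosen after seeing the data. Leaving out single libraries gave 5 to 7 members lower at 24 h, 2 to 4 higher in ARID2 than in labelled Aiolos knockdown and 0 to 1 higher in the 72 h effect than in the ARID2 knockdown effect. All values that turned in sign had not passed. Under quantile normalization DNMT3A was -0.077 at 48 h and -0.039 at 72 h against untreated cells and 0.039 at 72 h against 48 h, DNMT3B was 0.016 in ARID2 against labelled Aiolos knockdown, and SUZ12 was 0.015 in control knockdown against untreated cells. Under median-of-ratios scaling DNMT3A was -0.019 at 72 h. With single libraries left out TET1 ran from -0.13 to 0.072 at 48 h against 24 h, DNMT3A from -0.075 to 0.00080 at 72 h against 48 h, and SUZ12 from -0.12 to 0.0063 in labelled Aiolos knockdown against control. The cause was not tested. Median-of-ratios scaling moved the median of all genes at 72 h by -0.15 and quantile normalization by -0.10, and UHRF1, DNMT1, EZH2 and TET2 kept direction and call there. Same-numbered libraries did not deviate together (27 correlations of -0.12 to 0.08, 5 best with their own number), and the replicate block left 7 members lower at 24 h and 5 in ARID2 knockdown, since TET1 did not pass (adjusted p = 0.0592 and 0.0568). TPM without depth limit what can be said of genes at a few TPM.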

Other observations

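Summed over all 10 genes, TPM averaged 537 ± 9.33 in untreated cells, 346 ± 4.31 at 24 h, 219 ± 7.30 at 48 h and 217 ± 0.93 at 72 h (SD, n = 3 each). The sum averaged 328 ± 2.18 TPM in ARID2 knockdown libraries and 354 ± 12.6 TPM in labelled Aiolos knockdown libraries, against 425 ± 3.67 TPM in control knockdown libraries. The ratio of SUZ12 to EED TPM averaged 2.97 ± 0.29 in ARID2 knockdown libraries and 6.58 ± 0.66 in labelled Aiolos knockdown libraries, against 6.32 ± 0.45 in control knockdown libraries. The 16 germline genes summed to 118 to 134 TPM in ARID2 knockdown libraries and 128 to 147 TPM in labelled Aiolos knockdown libraries, against 128 to 135 TPM in control knockdown libraries and 89.3 to 95.7 TPM in untreated cells.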
